A study of Mus musculus with 16 samples.

Results

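The mitochondrial genome of the mouse is a small circle that encodes 37 genes: 13 mRNAs, 2 ribosomal RNAs (rRNAs) and 22 transfer RNAs (tRNAs). All genes of the deposited expression table whose symbol starts with mt- were taken, which gave all 37 of these among 55291 genes. Both strands of the circle are transcribed as long precursors by the polymerase Polrmt, and enzymes then release the mRNAs and rRNAs by removing the tRNAs that lie between them. The mRNAs encode core subunits of respiratory complexes I, III and IV and of ATP synthase, the rRNAs form the mitochondrial ribosome that translates those mRNAs, and the tRNAs serve that ribosome. Every other protein of these complexes and of the expression machinery comes from nuclear genes. In the GENCODE M21 annotation of mm10, 28 of the 37 genes lie on the + strand, and mt-Nd6 and 8 tRNAs make up the 9 on the - strand.

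Total RNA was measured in E14Tg2a mouse embryonic stem cells (strain 129/Ola) in 8 groups of 2 libraries, 16 in all. Lines R342C, K365T and Q418R carry a doxycycline-inducible transgene for CTCF, a DNA-binding protein that shapes chromosome loops, with the named amino acid change, and line WT carries the unchanged CTCF transgene. In all lines the cells' own CTCF has an auxin degron, and every culture was given 500 µM IAA, which triggers the degron, together with doxycycline at 1 µg/ml (the protocol says 2 days), so the WT line is a rescue line and not an untreated cell. Each line was grown for 3 days without LIF (leukaemia inhibitory factor), CHIR99021 and PD0325901, called no LIF, or was kept in serum medium with LIF, 3 µM CHIR99021 (an inhibitor of GSK3) and 1 µM PD0325901 (an inhibitor of MEK), called LIF. Each genotype is 1 line, so line and genotype cannot be told apart, and nothing says whether the 2 libraries of a group came from separate cultures, so the p-values measure only the spread between these libraries. RNA was purified on columns, depleted of rRNA with probes and made into stranded libraries.

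The libraries held 19721363 to 31935381 reads, recovered from the authors' normalised counts, which are reads divided by 1 size factor per library. All 10 embryonic stem cell markers reached at least 100 normalised counts in every library. Their summed level was 53702 to 67269 without LIF, against 113081 to 130914 with LIF. Of the 10, 8 were lower and 2 higher without LIF at a limma adjusted p under 0.05. Those higher were Utf1 (median 5991 without LIF, against 455 with LIF) and Lin28a (14968, against 943). The summed level of 8 fibroblast markers was 839 to 1377 without LIF, against 266 to 496 with LIF. Within that list Lum and Postn stayed under 3 in every library, while Thy1 had a median of 566 without LIF, against 78.2 with LIF, Col1a2 one of 61.5, against 0.498, and Dcn one of 38.2, against 0. Of its 5 genes with a mean of at least 10, 4 were higher and 1 lower without LIF at a limma adjusted p under 0.05. The lower one was Pdgfra, with a median of 71.6 without LIF, against 150 with LIF. The 5 endoderm markers summed to 375 to 571 without LIF, against 243 to 454 with LIF (2 of 4 tested genes higher, 0 lower). The 5 trophectoderm markers summed to 173 to 336 without LIF, against 110 to 222 with LIF (2 of 4 higher, 1 lower). In the contrast used for these counts, the mean over the 4 lines, 34.6% of all tested genes were higher and 36.0% lower. Ctcf mRNA, which the transgene also produces, lay between 5292 and 8585 normalised counts in every library. The part of these other cell type markers in the results was not tested, and in bulk RNA fewer cells of a type and less RNA per cell cannot be told apart.

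The level of the mitochondrial mRNAs split into 2 classes by position on the circle. The first class holds 7 genes. Per kilobase of gene, mt-Co1 (complex IV) had a mean of 100924 normalised counts over the 16 libraries, mt-Nd1 (complex I) 100129, mt-Cytb (complex III) 69167 and mt-Nd2 (complex I) 65951. The complex I genes mt-Nd4, mt-Nd5 and mt-Nd6 had 29747, 24563 and 16147 per kilobase. The other 6 mRNAs lie next to each other between mt-Co1 and mt-Nd4 and had 58.5 to 140 per kilobase: mt-Co2 and mt-Co3 (complex IV), mt-Atp8 and mt-Atp6 (ATP synthase), and mt-Nd3 and mt-Nd4l (complex I).

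A stretch of nuclear DNA matches 5 of those 6 genes and reaches past mt-Atp8, the sixth, on both sides. On chromosome 1, between positions 24611535 and 24616197 (mm10, - strand), GENCODE M21 annotates 7 pseudogenes, Gm28439, Gm10222, Gm28438, Gm28437, Gm10925, Gm28661 and Gm29216, whose sequences match positions 6394 to 11042 of the mitochondrial genome, from within mt-Co1 to within mt-Nd4. All 6 mRNAs of low level and 5 tRNAs (mt-Ts1, mt-Td, mt-Tk, mt-Tg and mt-Tr) lie wholly between these 2 mitochondrial positions. Over the whole length of the copies, mt-Co2 and Gm28661 were identical at 681 of 681 positions, mt-Atp6 and Gm10925 at 678, mt-Co3 and Gm28437 at 783 and mt-Nd4l and Gm10222 at 294. Between mt-Nd3 and Gm28438, 345 positions held 1 mismatch, T3C, counted from the first base of the gene. The first 50 bases of both genes are shown because they hold the only base that tells these annotated copies apart; the capital marks it, and each is written 5′ to 3′ from GENCODE M21 (mt-Nd3 at chrM:9459-9508 on the + strand, Gm28438 at chr1:24613070-24613119 on the - strand).
mt-Nd3: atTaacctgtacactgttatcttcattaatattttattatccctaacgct
Gm28438: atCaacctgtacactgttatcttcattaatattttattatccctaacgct

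Of all 50-base windows of a gene, the share that also occurs in a nuclear transcript of GENCODE M21 was 98.0% to 100% in mt-Co2, mt-Atp6, mt-Co3, mt-Nd3 and mt-Nd4l. It was 51.1% in mt-Co1 and 62.2% in mt-Nd4, which reach into the stretch at one end. Gm29216 of chromosome 1 held 28.7% of the windows of mt-Co1 and Gm13340, a pseudogene on chromosome 2, 27.5%; a second pseudogene on chromosome 2, Gm13341, held 35.3% of those of mt-Co2. The share of shared windows was 8.19% in mt-Nd2, 7.61% in mt-Nd5 and 0% in mt-Nd1, mt-Nd6 and mt-Cytb. For mt-Atp8 and all 22 tRNAs it was also 0%. Most of mt-Atp8 lies opposite the gap between Gm28661 and Gm10925, where no transcript is annotated. Its end, at positions 7927 to 7969, overlaps mt-Atp6 by less than a 50-base window. The 5 tRNAs inside the stretch also lie at gaps between the annotated pseudogenes. The genome sequence of these gaps was not used here, so for mt-Atp8 and these 5 tRNAs 0% does not show that no copy exists. The 5 tRNAs inside the stretch had means of 0 to 0.0701 normalised counts, with mt-Td and mt-Tg at 0 in all 16 libraries, and the 17 tRNAs outside it had means of 0.535 to 598. The pseudogenes themselves had up to 763 normalised counts in any library (Gm28438), and that gene had a log2 difference of no LIF minus LIF of -0.35 ± 0.31 (SE; limma adjusted p = 0.335). How reads that fit both places were counted is not given in the sources used here, so the values of the 6 mRNAs and 5 tRNAs are uncertain, and those of mt-Co1 and mt-Nd4 may leave out part of the gene.

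**Figure D1:**
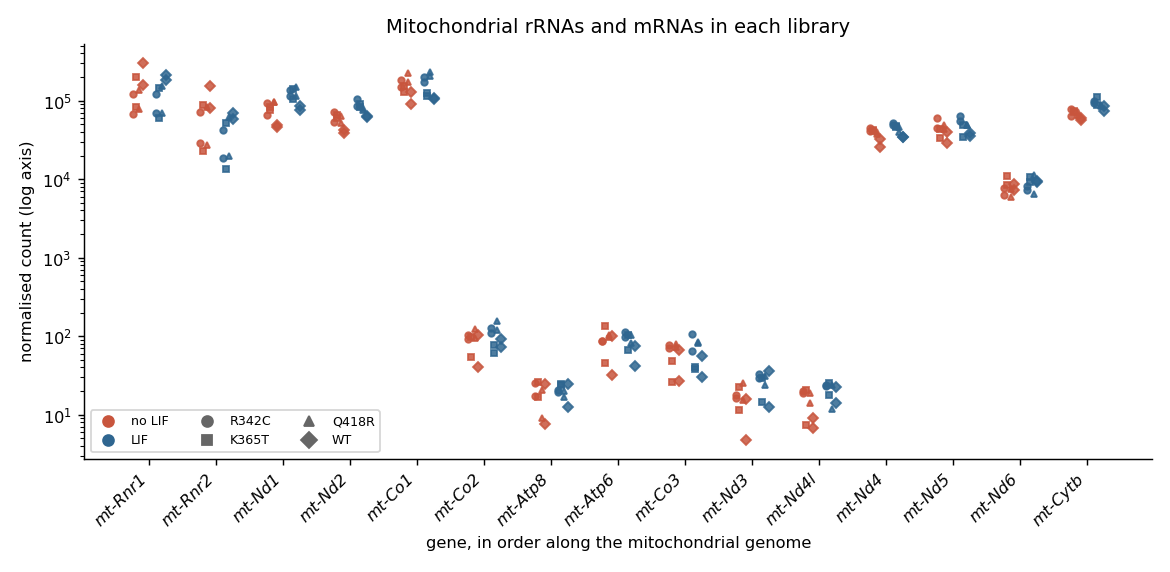
Normalised counts (log axis) of the 2 rRNAs and 13 mRNAs in each of the 16 libraries, in their order along the mitochondrial genome, with no LIF (red) left of LIF (blue) and 1 symbol per line. The 6 genes from mt-Co2 to mt-Nd4l lie between 4.79 and 155 in every library, and the lowest value of the other genes is 5969.

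**Figure D2:**
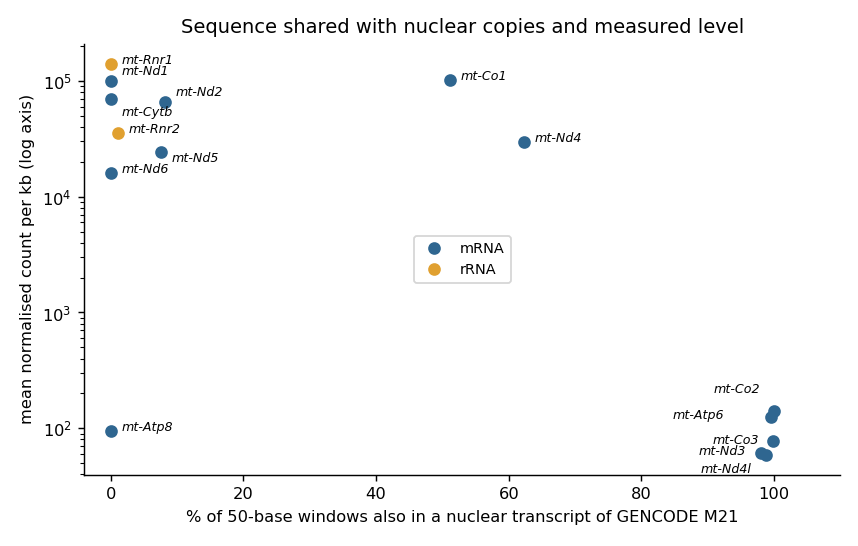
Share of the 50-base windows of each mRNA (blue) and rRNA (yellow) that also occur in a nuclear transcript of GENCODE M21 (horizontal axis, %) against the mean normalised count per kilobase over 16 libraries (vertical log axis). The 5 genes at 98.0% to 100% lie at 58.5 to 140 per kilobase, mt-Atp8 lies at 0% and 95.02, and all other genes lie at 16147 or more.

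Mitochondrial genes of all 3 classes together made up 2.288% to 3.335% of the normalised counts without LIF, against 2.664% to 3.503% with LIF. The mRNA share was 1.88% and 2.24% in R342C, 1.85% and 2.08% in K365T, 2.11% and 2.45% in Q418R and 1.26% and 1.47% in WT without LIF. With LIF it was 2.43% and 2.71% in R342C, 2.03% and 2.36% in K365T, 2.61% and 2.49% in Q418R and 1.69% and 1.68% in WT. Both WT libraries thus lay below all 6 mutant libraries of their medium, and the no LIF libraries lay below those of the same line with LIF in every line except K365T, where 2.08% without LIF exceeded 2.03% with LIF. Over the 4 lines the share had a median of 1.98% without LIF, against 2.40% with LIF, and the log2 ratio of the means was -0.23, while the ranges of the 2 media overlapped. Libraries of a line that bear the same replicate number deviated together across media (correlations over genes of 0.27 to 0.295 in the 4 lines). Between groups of different lines these correlations were -0.387 to 0.448, so some were stronger than within a line. In 8 of 8 same-numbered pairs within a line the mRNA share was lower without LIF.

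The rRNA share ran the other way, with a median of 0.902% without LIF, against 0.751% with LIF, and overlapping ranges. In each mutant group the 2 libraries differed by more than the medians of the media did. Without LIF it was 0.850% and 0.397% in R342C, 1.26% and 0.467% in K365T, 0.954% and 0.468% in Q418R and 1.03% and 1.86% in WT. With LIF it was 0.685% and 0.357% in R342C, 0.816% and 0.300% in K365T, 0.888% and 0.366% in Q418R and 0.970% and 1.17% in WT. In all 6 mutant groups replicate 2 had 0.367 to 0.521 times the share of replicate 1, against 1.81 times without LIF and 1.21 times with LIF in WT. In 8 of 8 pairs of libraries of the same line and number the rRNA share was higher without LIF. These are the reads that the rRNA depletion left in the library. Other structural RNAs, a list of 356 genes, made up 0.719% to 1.32% of the counts, and the highest value was in the WT no LIF library replicate 2, which also had the highest mitochondrial rRNA share; the part of this library was not tested beyond leaving it out.

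The tRNA share was 0.00391% to 0.0124% without LIF, against 0.00480% to 0.0112% with LIF. Mature tRNAs are shorter than the fragments that column purification and 150-base paired sequencing favour, so a read over a tRNA gene cannot be assigned to the mature tRNA or to a longer precursor. Replicate 2 had the higher tRNA share in all 8 groups.

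**Figure D3:**
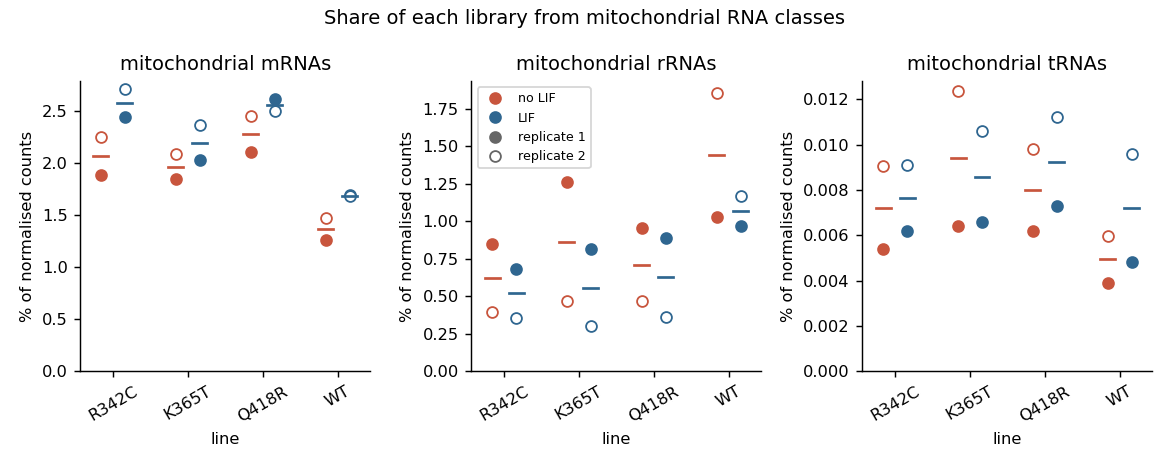
Share of each library's normalised counts (%, axes from 0) from mitochondrial mRNAs, rRNAs and tRNAs in the 4 lines, no LIF (red) left of LIF (blue), with replicate 1 filled, replicate 2 open and the mean of 2 as a bar. The WT mRNA share, 1.26% to 1.69%, lies below that of every mutant library, and the rRNA share of replicate 2 lies below that of replicate 1 in all 6 mutant groups and above it in both WT groups.

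Differences between media were tested gene by gene with limma on log2(normalised count + 4), over all 17757 genes with a mean of at least 10, with Benjamini-Hochberg adjustment over these genes and a threshold of 0.05. Of the 37 genes, 26 passed the filter: 13 mRNAs, 2 rRNAs and 11 tRNAs. As a mean over the 4 lines, 7 of the 26 were lower without LIF, 5 mRNAs and 2 tRNAs, and 0 were higher by this fit, edgeR or DESeq2; 0 had a positive difference at an unadjusted limma p under 0.05. Over all tested genes 36.0% were lower and 34.6% higher, so the count of lower genes was no larger than over the whole table. With same-numbered libraries of a line taken as pairs (limma with 1 replicate term per line, added after the data were seen), the count was 12 lower and 1 higher, against 38.4% lower and 36.9% higher over all tested genes. The 7 genes were among the 12, and mt-Nd4l, mt-Nd6, mt-Tl1, mt-Tp and mt-Tt (lower) and mt-Rnr2 (higher) were added. The median log2 difference was -0.20 over the 13 mRNAs and -0.19 over the 26 genes, against -0.01 over all tested genes.

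The clearest decreases were in the complex I genes at the start of the mRNA-coding part of the circle. mt-Nd1, a core subunit of complex I, which passes electrons from NADH to ubiquinone, had a lowest, median and highest value of 45936, 79696 and 97038 normalised counts without LIF, against 77114, 116090 and 148613 with LIF. It fell by 35.5%, a log2 difference of -0.63 ± 0.09 (SE; limma adjusted p = 2.49e-05). Its libraries overlapped between media over all lines. Both no LIF libraries lay below both LIF libraries within each of the 4 lines, as in 24.9% of all tested genes. mt-Nd2, the next complex I gene along the circle, had 39255, 57124 and 70955 without LIF, against 61883, 82194 and 104800 with LIF, and fell by 31.2% (log2 difference -0.54 ± 0.08, limma adjusted p = 2.27e-05).

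mt-Cytb, the only mitochondrially encoded subunit of complex III, had 56027, 68595 and 78644 normalised counts without LIF, against 74445, 87980 and 109978 with LIF. It fell by 25.1% (log2 difference -0.42 ± 0.07, limma adjusted p = 0.000133). mt-Nd4, a further core subunit of complex I, had 25744, 40197 and 44925 without LIF, against 34406, 46718 and 51537 with LIF, and fell by 12.8% (log2 difference -0.20 ± 0.06, limma adjusted p = 0.0138). It was no longer under the threshold on the TPM scale, where the log2 difference was -0.12, or on reads scaled to the library total, where it was -0.13. mt-Nd1, mt-Nd2, mt-Cytb and mt-Nd4 were the mRNAs in which both no LIF libraries lay below both LIF libraries in each of the 4 lines; 24.9% of all tested genes met that pattern.

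The other mRNAs did not all share these decreases. mt-Co1, the catalytic subunit of complex IV, had 89333, 151258 and 224742 normalised counts without LIF, against 104580, 148755 and 230638 with LIF. Its log2 difference was -0.02 ± 0.10 (limma adjusted p = 0.848) and its sign turned on the TPM scale (0.055) and on reads scaled to the library total (0.043). The ratio of mt-Co1 to mt-Nd1 was 1.67 to 2.60 without LIF, against 0.897 to 1.98 with LIF, a description chosen after its values were seen. mt-Nd5, a complex I subunit encoded between mt-Nd4 and mt-Cytb, had a log2 difference of -0.11 ± 0.10 (adjusted p = 0.327 by limma), and mt-Nd6, the mRNA read from the other strand, one of -0.19 ± 0.11 (adjusted p = 0.125 by limma), with an adjusted p of 0.00839 when libraries were paired within each line. mt-Nd6 had 5969, 7622 and 10836 normalised counts without LIF, against 6512, 9120 and 11232 with LIF, and its level was 1.05% to 2.63% of that of the other 12 mRNAs together.

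The 6 mRNAs of low level inside the copied stretch had wide errors. mt-Nd3 had 4.785 to 25.28 normalised counts without LIF, against 12.46 to 35.66 with LIF, and a log2 difference of -0.59 ± 0.24 (limma adjusted p = 0.0434). That call was lost in 11 of the 16 fits that left out 1 library, without the filter on low values, on the TPM scale, on reads scaled to the library total and with DESeq2. mt-Nd4l (-0.44 ± 0.20), mt-Co2 (-0.21 ± 0.19), mt-Atp8 (-0.16 ± 0.22), mt-Co3 (-0.09 ± 0.20) and mt-Atp6 (-0.06 ± 0.25) had log2 differences that did not pass the limma test, with adjusted p from 0.0601 to 0.850; with pairing within each line mt-Nd4l passed (limma adjusted p = 0.0396).

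**Figure D4:**
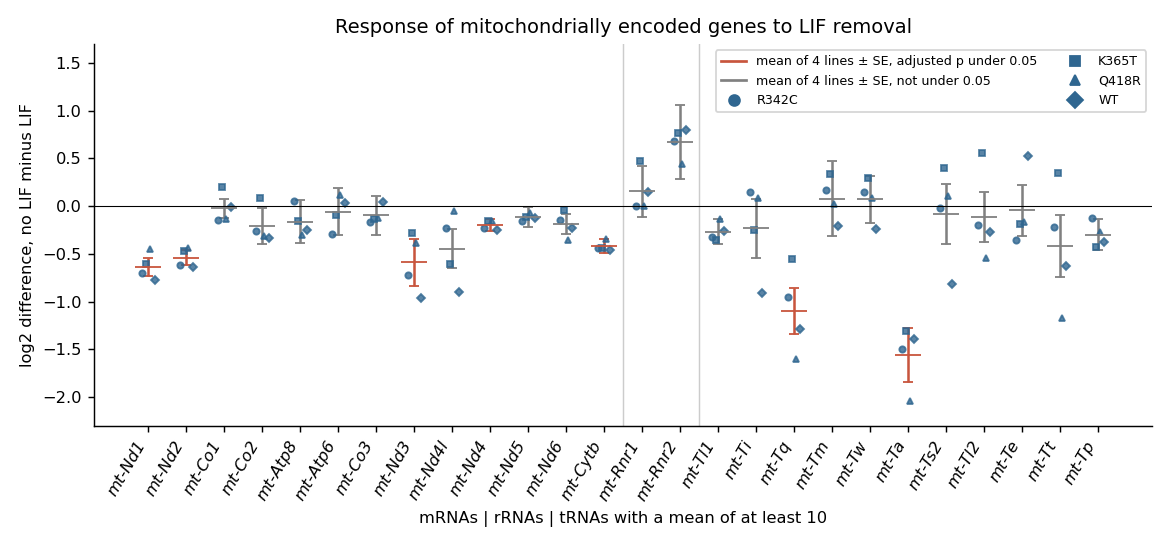
Log2 difference of no LIF minus LIF for the 26 tested mitochondrial genes, with the value in each line as a blue symbol and the mean over the 4 lines with its SE, red where the limma adjusted p without pairing is under 0.05. The 7 red genes lie between -1.56 (mt-Ta) and -0.20 (mt-Nd4), and no gene above 0 is red.

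The 16S rRNA was called higher without LIF when same-numbered libraries of a line were paired, and neither rRNA was called without the pairing. mt-Rnr1, the 12S rRNA of the small ribosomal subunit, had 66839, 129607 and 303040 normalised counts without LIF, against 59245, 131691 and 214330 with LIF, a log2 difference of 0.16 ± 0.27 (limma adjusted p = 0.613). mt-Rnr2, the 16S rRNA of the large subunit, had 22917, 75563 and 153023 without LIF, against 13457, 47350 and 69175 with LIF, a log2 difference of 0.67 ± 0.39 (limma adjusted p = 0.139). In 8 of 8 pairs of the same line and number mt-Rnr2 was higher without LIF, by 1.34 to 2.21 times. With the pairs in the fit its log2 difference was 0.67 ± 0.07 (limma adjusted p = 2.74e-06). That fit was added after the data were seen, and it called 36.9% of all tested genes higher. The share of all tested genes that were higher in 8 of 8 pairs was not counted. mt-Rnr1 was higher without LIF in 5 of 8 pairs, at 0.868 to 1.41 times, and the paired fit did not call it (0.16 ± 0.08, limma adjusted p = 0.0991). Without the pairing, mt-Rnr2 passed when K365T no LIF replicate 2 or K365T LIF replicate 1 was left out, with log2 differences of 0.91 and 0.92.

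The ratio of mt-Rnr2 to mt-Rnr1 within a library varied less than either rRNA. Without LIF it was 0.575 and 0.426 in R342C, 0.442 and 0.279 in K365T, 0.607 and 0.349 in Q418R and 0.506 and 0.505 in WT. With LIF it was 0.355 and 0.270 in R342C, 0.363 and 0.227 in K365T, 0.405 and 0.284 in Q418R and 0.322 and 0.323 in WT. For each line and replicate number the no LIF value was the higher one, and in R342C and WT both no LIF values lay above both LIF values. The ratio was chosen after its values were seen and gets no test, and it depends on how evenly the depletion removed the 2 rRNAs, which was not measured.

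Of the tRNAs, 2 were called lower without LIF by the unpaired fit, and both are encoded on the - strand: mt-Ta, which carries alanine, and mt-Tq, which carries glutamine. Pairing within each line added mt-Tp on the - strand and mt-Tl1 and mt-Tt on the + strand. The reference sequences of mt-Ta and mt-Tq from GENCODE M21, C57BL/6J-based like the whole build, are shown with those of mt-Tm (methionine) and mt-Tw (tryptophan). These are 2 of their neighbours on the + strand. Each sequence is written 5′ to 3′ on its own strand with the anticodon in capitals. They lie at chrM:5018-5086 (mt-Ta), chrM:3772-3842 (mt-Tq), chrM:3845-3913 (mt-Tm) and chrM:4950-5016 (mt-Tw).
mt-Ta: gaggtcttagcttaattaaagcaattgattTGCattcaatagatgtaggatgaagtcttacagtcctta
mt-Tq: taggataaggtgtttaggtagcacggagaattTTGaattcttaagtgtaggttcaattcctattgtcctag
mt-Tm: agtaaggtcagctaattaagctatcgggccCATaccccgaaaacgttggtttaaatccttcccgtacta
mt-Tw: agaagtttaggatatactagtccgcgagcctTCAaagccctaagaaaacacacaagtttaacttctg

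mt-Ta had 9.89, 15.1 and 47.1 normalised counts (lowest, median and highest) without LIF, against 27.6, 50.3 and 151 with LIF. It fell by 66.1%, a log2 difference of -1.56 ± 0.28 (limma adjusted p = 0.000168). mt-Tq had 72.7, 113 and 205 without LIF, against 143, 206 and 559 with LIF, and fell by 53.3% (log2 difference -1.10 ± 0.24, limma adjusted p = 0.000919). In both genes the 2 media overlapped over all lines. Within each of the 4 lines both no LIF libraries lay below both LIF libraries, as in 24.9% of all tested genes.

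Differences in their + strand neighbours were smaller as a mean over the 4 lines. mt-Ti (isoleucine), whose positions overlap those of mt-Tq, had a log2 difference of -0.23 and was not called. By line it was -0.91 in WT, -0.25 in K365T, 0.15 in R342C and 0.09 in Q418R. With pairing within each line mt-Ti passed in WT (limma adjusted p = 0.00643). mt-Tm had a log2 difference of 0.08 ± 0.39 (adjusted p = 0.867 by limma) and mt-Tw, the most abundant tRNA at a median of 505 normalised counts without LIF, against 516 with LIF, one of 0.07 ± 0.25 (adjusted p = 0.808 by limma). The other tested tRNAs of the - strand, mt-Tp (proline) and mt-Te (glutamate), had log2 differences of -0.30 ± 0.16 and -0.04 ± 0.26 and were not called, nor was mt-Tl1 (leucine), which lies between mt-Rnr2 and mt-Nd1, at -0.27 ± 0.13; with pairing within each line mt-Tp and mt-Tl1 passed (limma adjusted p = 0.0318 and 0.0367), as did mt-Tt (0.0224). Without it, mt-Ti and the remaining tested tRNAs, mt-Ts2, mt-Tl2 and mt-Tt, were not called and had differences of -0.41 to -0.08. The 11 tRNAs with a mean under 10 had at most 13.3 normalised counts in any library. The setting for strand in the counting is not given in the sources used here, so reads of a tRNA on the - strand and of precursors from the opposite strand cannot be told apart.

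Within single lines 3 or 4 of the 26 genes were called lower without LIF in each line, and 0 were called higher by limma without pairing, edgeR or DESeq2 or at an unadjusted limma p under 0.05. Of all tested genes, 23.3% were higher in R342C, 21.6% in K365T, 23.0% in Q418R and 23.8% in WT. R342C had mt-Ta (-1.499), mt-Nd1 (-0.70), mt-Nd2 (-0.61) and mt-Cytb (-0.44), where 23.9% of all tested genes were lower by limma. K365T had mt-Nd1 (-0.61), mt-Nd2 (-0.47) and mt-Cytb (-0.43), against 23.0% of all tested genes. Q418R had mt-Ta (-2.04), mt-Tq (-1.61) and mt-Nd2 (-0.44), against 23.5%, and WT had mt-Tq (-1.28), mt-Nd1 (-0.78), mt-Nd2 (-0.64) and mt-Cytb (-0.46), against 24.9%.

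With same-numbered libraries of a line paired, 5 of the 26 genes were lower and 1 higher in R342C, 4 lower and 2 higher in K365T, 7 lower and 1 higher in Q418R and 8 lower and 1 higher in WT. Over all tested genes that fit called 27.3% lower and 26.7% higher in R342C, 26.7% and 25.4% in K365T, 27.5% and 26.5% in Q418R and 28.9% and 27.4% in WT. The gene called higher was mt-Rnr2 in each of the 4 lines, with log2 differences of 0.68 in R342C, 0.77 in K365T, 0.44 in Q418R and 0.80 in WT, and in K365T also mt-Rnr1 (0.48). The unpaired calls were all kept.

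The unpaired counts depended on single libraries. No gene was called in R342C without its no LIF replicate 1 or its LIF replicate 2, in K365T without no LIF replicate 1 or LIF replicate 2, or in Q418R without no LIF replicate 1. The count was 2 in R342C without its LIF replicate 1 and 1 in Q418R without its LIF replicate 2. In WT it was 2 without no LIF replicate 1 and 8 without no LIF replicate 2. On the TPM scale the counts were 1 in R342C, 0 in K365T and 2 in WT. They were 0 in K365T and 2 in WT when only the libraries of that line were fitted, and 5 in Q418R with edgeR or DESeq2. The response was also compared between each mutant line and WT, as the difference of the 2 log2 differences. None of the 78 such tests passed (lowest limma adjusted p = 0.682), and 0 had an unadjusted p under 0.05 by limma, edgeR or DESeq2. Of all genes, 0.0% passed for R342C, 0.659% for K365T and 0.141% for Q418R. With the pairing within each line 0 of 78 passed (lowest limma adjusted p = 0.209) and 5 had an unadjusted p under 0.05, where 0.0%, 2.69% and 0.85% of all genes passed in the same lines.

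The mutant lines were set against WT in each medium, 6 contrasts that share the WT libraries of their medium. In R342C 0 of the 26 genes passed by limma in either medium, where 0.372% of all genes were higher and 0.107% lower without LIF, and 0.332% higher and 0.0845% lower with LIF. An unadjusted p under 0.05 was reached by 7 genes without LIF and 6 with LIF. edgeR called 0 in both media, and DESeq2 called 3 without LIF (mt-Nd1, mt-Nd2 and mt-Nd4) and 3 with LIF (mt-Co1, mt-Nd2 and mt-Nd4). In K365T 3 mRNAs were higher than in WT without LIF (7.38% of all genes were higher, 7.33% lower) and 1 with LIF (6.42% higher, 4.66% lower). In Q418R 2 were higher without LIF (3.02% higher, 3.13% lower) and 1 with LIF (1.86% higher, 2.38% lower). By limma, edgeR and DESeq2 0 of the 26 were lower in any of the 6 contrasts; mt-Rnr1 in R342C without LIF was the 1 lower gene at an unadjusted limma p under 0.05.

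The genes called were complex I and complex IV mRNAs. Without LIF, mt-Nd1 had 76276 and 83115 normalised counts in K365T, 95493 and 97038 in Q418R, and 45936 and 49028 in WT. The log2 differences from WT were 0.75 ± 0.19 in K365T (limma adjusted p = 0.0178) and 1.02 ± 0.19 in Q418R (limma adjusted p = 0.00634). All 4 mutant libraries lay above both WT libraries, as did both R342C libraries, at 66321 and 92030, with a log2 difference of 0.72 ± 0.19 that did not pass (limma adjusted p = 0.220). mt-Nd2 had 60346 and 65453 in K365T, against 39255 and 42100 in WT without LIF (0.63 ± 0.16, limma adjusted p = 0.0178).

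mt-Nd4 had 41013 and 42745 normalised counts in K365T, against 25744 and 32799 in WT without LIF (log2 difference 0.53 ± 0.13, limma adjusted p = 0.0163). With LIF it had 46584 and 46891 in K365T, against 34406 and 34890 in WT (0.43 ± 0.13, limma adjusted p = 0.0462). mt-Co1 had 175296 and 224742 in Q418R, against 89333 and 127248 in WT without LIF (0.90 ± 0.19, limma adjusted p = 0.0150). With LIF it had 206840 and 230638 in Q418R, against 104580 and 109614 in WT (1.03 ± 0.19, limma adjusted p = 0.00947).

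In 4 mRNAs, mt-Nd1, mt-Nd2, mt-Co1 and mt-Nd4, all 6 mutant libraries lay above both WT libraries in both media; 1.46% of all tested genes did so. For mt-Cytb this held for 6 of 6 mutant libraries without LIF and 5 of 6 with LIF. The group means of mt-Nd6 were lower than in WT in R342C and Q418R and higher in K365T, and limma did not call mt-Nd6 in any contrast against WT. Without LIF its means were 7027 in R342C, 6760 in Q418R and 9673 in K365T, against 7892 in WT. With LIF they were 7724, 8872 and 9864 in the same order, against 9227 in WT. The 2 Q418R libraries with LIF, at 6512 and 11232, lay on either side of the WT libraries, at 9087 and 9367, and 1 K365T library, at 9152, lay between those of WT. The rRNAs gave the opposite sign to mt-Nd1, mt-Nd2, mt-Co1 and mt-Nd4. mt-Rnr1 had a lowest, median and highest value of 66839, 102638 and 200299 in the 6 mutant libraries without LIF, against 158536 and 303040 in WT, and 59245, 94820 and 151656 in the mutant libraries with LIF, against 182588 and 214330 in WT. Its log2 differences from WT were -1.27 ± 0.53 to -0.77 ± 0.53 over the 6 contrasts and none passed.

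These contrasts too depended on single libraries and settings. Without LIF, 0 genes were called in K365T when its replicate 2 or WT replicate 1 was left out, 1 when WT replicate 2 was left out, and 0 when only the libraries of the 2 groups entered the fit. In Q418R 1 was called without its own replicate 1, its replicate 2 or WT replicate 1, and 0 when only the 2 groups were fitted. In R342C 1 was called without WT replicate 2. With LIF, the single K365T call (mt-Nd4) was lost in 12 of 16 fits that left out 1 library, all but those without a no LIF library of K365T or WT, and the single Q418R call (mt-Co1) was lost without either of its own libraries or either WT library. In Q418R 2 genes were called with LIF when either R342C no LIF library or either K365T LIF library was left out.

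**Figure D5:**
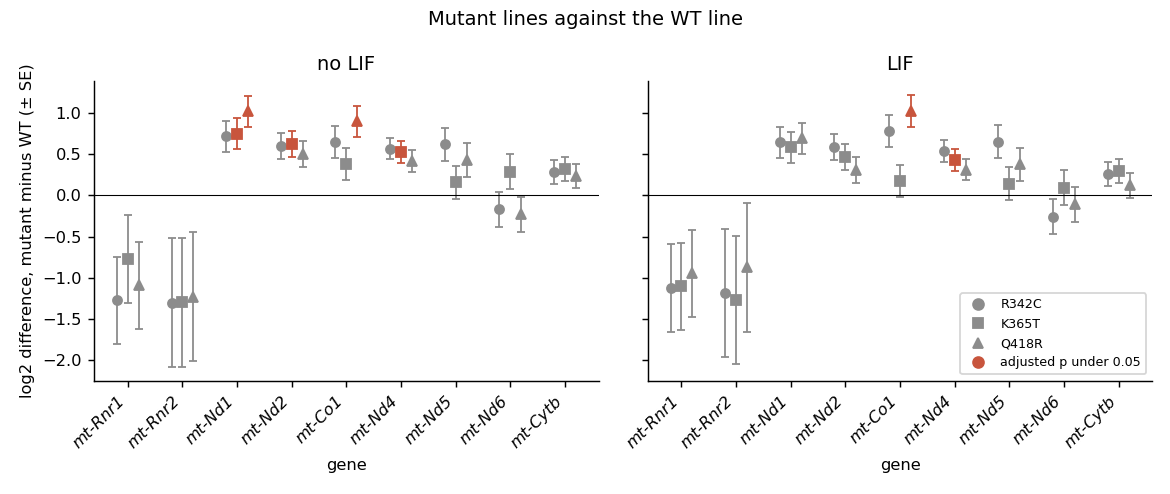
Log2 difference of each mutant line minus WT, with its SE, for the 2 rRNAs and the 7 mRNAs of high level, without LIF (left) and with LIF (right), red where the limma adjusted p is under 0.05. The mRNAs mt-Nd1, mt-Nd2, mt-Co1, mt-Nd4, mt-Nd5 and mt-Cytb lie above 0 in all lines and the rRNAs lie below 0 with SEs of 0.53 to 0.78. The remaining mRNA, mt-Nd6, lies below 0 in R342C and Q418R and above 0 in K365T.

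The nuclear genes that serve the mitochondrial genome were counted in lists, by the unpaired fit, in which 36.0% of all tested genes fell and 34.6% rose, with a median log2 difference of -0.01. Of 9 genes for transcription, 5 (55.6%) fell without LIF and 0 rose, with a median log2 difference of -0.28. Among them, Tfb2m, the factor that opens promoters for Polrmt, had a median of 293 normalised counts without LIF, against 364 with LIF, and fell by 0.42 ± 0.10 on the log2 scale (limma adjusted p = 0.00104). Mterf1a, of a family named for the termination of mitochondrial transcription, fell by 0.60 ± 0.14, and its paralogue Mterf1b by 0.41 ± 0.17. Reads of these similar genes may be split between them.

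Of 29 genes for RNA processing and modification, 14 (48.3%) fell and 4 (13.8%) rose, against 36.0% and 34.6% of all tested genes (median -0.14). Grsf1, a protein of mitochondrial RNA granules, had 1860, 2292 and 2887 normalised counts without LIF, against 7192, 10144 and 15369 with LIF, and fell by 2.17 ± 0.11 on the log2 scale (limma adjusted p = 1.84e-10). The 2 ranges did not overlap. Mrm2, which methylates the 16S rRNA, fell by 1.10 ± 0.10 and Fastk, which acts on mt-Nd6 RNA, by 0.91 ± 0.06 on the same scale. Rpusd4 and Fastkd2, which both act on the 16S rRNA, rose by 0.44 ± 0.07 and 0.40 ± 0.06. Of 5 genes for RNA stability and decay, Slirp fell by 0.39 ± 0.08 and Supv3l1, the helicase of the RNA-degrading complex, by 0.15 ± 0.05, and Lrpprc, the partner of Slirp in holding mRNAs stable, rose by 0.20 ± 0.06.

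Of 17 genes for replication and maintenance of mitochondrial DNA, 10 (58.8%) rose and 5 (29.4%) fell, against 34.6% and 36.0% of all tested genes (median 0.21). Polg, the catalytic subunit of the DNA polymerase, had 4668, 6245 and 8008 normalised counts without LIF, against 3272, 3611 and 4016 with LIF, and rose by 0.77 ± 0.06 on the log2 scale (limma adjusted p = 5.59e-08). Its accessory subunit Polg2 rose by 1.02 ± 0.10, and Rnaseh1, which removes RNA primers, fell by 0.68 ± 0.10. The copy number of mitochondrial DNA was not measured.

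Most nuclear subunits of the complexes that hold mitochondrially encoded proteins fell without LIF. For complex I 27 of 36 fell and 0 rose (median -0.35), for complex III 7 of 9 fell and 0 rose (median -0.39), for complex IV 10 of 11 fell and 0 rose (median -0.37), and for ATP synthase 11 of 15 fell and 2 rose (median -0.31). Complex II, which has no mitochondrially encoded subunit, had 3 of 4 lower and 1 higher. Among all tested genes, 36.0% fell and 34.6% rose. Cox5a, a nuclear complex IV subunit, had 1204, 1475 and 1918 normalised counts without LIF, against 3226, 3484 and 3681 with LIF, and fell by 1.13 ± 0.09 on the log2 scale (limma adjusted p = 2.70e-08). Ndufb4 (complex I) fell by 1.12 ± 0.07 and Uqcr10 (complex III) by 1.06 ± 0.06. The catalytic mitochondrial gene of complex IV, mt-Co1, had a log2 difference of -0.02 in the same contrast.

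Of 77 mitochondrial ribosomal protein genes, 39 (50.6%) fell and 8 (10.4%) rose (median -0.17). Of 17 mitochondrial aminoacyl-tRNA synthetases 7 (41.2%) fell and 5 (29.4%) rose (median -0.23), near the 36.0% and 34.6% of all tested genes. Aars2, which charges mt-Ta with alanine, fell by 0.61 ± 0.09 on the log2 scale, with a median of 531 normalised counts without LIF, against 901 with LIF. Mars2, which charges mt-Tm with methionine, fell by 1.14 ± 0.08 and Wars2, which charges mt-Tw with tryptophan, rose by 0.53 ± 0.08. Mrpl23 had 116 to 205 normalised counts without LIF, against 9.24 to 25.7 with LIF, and rose by 2.89 ± 0.16. Of 9 regulators of mitochondrial biogenesis, Myc, Ppargc1b and 2 others rose and Gabpa and 2 others fell; Gabpa, a subunit of the nuclear respiratory factor NRF2, fell by 0.75 ± 0.05 on the log2 scale.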

How the data were processed

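Total RNA of 16 libraries was measured. Per the submitters' processing notes, reads were handled with Trim Galore, STAR and DESeq2 on mm10; versions, counting tool, annotation, strand setting and the handling of reads that fit several places are not given in the sources used here. The deposited normalised counts (a signal: reads divided by 1 size factor per library) were made by the authors. All values at low and moderate read counts, divided by the value of 1 read, were whole within 0.05. Higher values, as of the rRNAs and the mRNAs of high level, were outside that check and were rounded to whole reads. The TPM table deposited by the authors, which corrects for gene length too, served as an alternative. The precision of a count depends on the 19721363 to 31935381 reads per library, and that of a difference also on the spread between the 2 libraries of a group. The members, the gene lists and the tests were chosen with earlier results of these data known.

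Log2(normalised count + 4) was fitted with limma 3.58.1 in R 4.3.3 (lmFit, contrasts.fit, eBayes with trend) over 17757 genes with a mean of at least 10, with a mean per group (8 groups, 8 residual degrees of freedom), in 14 contrasts, and p was adjusted by Benjamini-Hochberg over all tested genes at a threshold of 0.05. Sums over members (shares of the library) were described and not tested. All 13 mRNAs and both rRNAs were named, tRNAs where they reached the filter and were called or were among the most abundant, with further tRNAs named after their values were seen, and of each pathway list up to 3 called genes with the largest rise and up to 3 with the largest fall; Aars2 and Wars2 were chosen for mt-Ta and mt-Tw. Alternatives were a pseudocount of 1, no filter, TPM (log2 of TPM + 0.1), reads scaled to the library total, edgeR 4.0.16 and DESeq2 1.42.0 on the recovered reads, the replicate number as a block, only the libraries compared, and each library left out. In each of the 4 lines, the deviations of same-numbered libraries from their group means correlated across media (0.27 to 0.295 over genes). Between groups of different lines the correlations were -0.387 to 0.448, so some were stronger than within a line. For the medium, same-numbered libraries of a line were also fitted as pairs, with 1 replicate term per line and 4 residual degrees of freedom. The pairing comes from the numbers in the labels and the check within lines, and was added after the data were seen. The scripts were tested on simulated counts. Sequences were compared in windows of 50 bases within GENCODE M21 transcripts; no genome sequence was used.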

Additional observations from a re-analysis of the deposited data

How the results depend on the processing

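The mean response to medium kept its count of calls within 1.5 times of 7 under every alternative tried except the pairing of same-numbered libraries within each line, which gave 13; it was 10 with 1 replicate term over all lines and 6 to 9 when 1 library was left out. With the pairing the counts in single lines were 6 in R342C, 6 in K365T, 8 in Q418R and 9 in WT. Counts in single lines and against WT moved more, and the cause was not tested. For no LIF against LIF, the count of 4 in R342C became 1 with TPM, the 3 in K365T became 0 with TPM and 0 with only the groups compared, the 3 in Q418R became 5 with edgeR and 5 with DESeq2, and the 4 in WT became 2 with TPM and 2 with only the groups compared. Without LIF, the 0 in R342C against WT became 1 on reads scaled to the library total and 3 with DESeq2, the 3 in K365T became 1 with TPM and 0 with only the groups compared, and the 2 in Q418R became 4 on the library total, 4 with DESeq2 and 0 with only the groups compared. With LIF, the 0 in R342C against WT became 3 with DESeq2, the 1 in K365T became 0 without the filter, 0 with TPM, 0 with only the groups compared and 3 on the library total, with edgeR and with DESeq2, and the 1 in Q418R became 0 with TPM and 2 on the library total, with edgeR and with DESeq2. Leaving out 1 library gave 0 to 4 calls in R342C, 0 to 4 in K365T, 0 to 4 in Q418R and 2 to 8 in WT for the medium. Against WT it gave 0 to 1 in R342C, 0 to 4 in K365T and 1 to 2 in Q418R without LIF, and 0 to 0, 0 to 1 and 0 to 2 in the same lines with LIF. It gave 0 to 0 for the differences in response. The log2 ratio of the medium means ranged over -0.29 to -0.16 for the mRNA share, 0.16 to 0.54 for the rRNA share and -0.29 to -0.05 for the tRNA share.

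Across different lines, deviations of same-numbered libraries correlated at -0.387 to 0.448 over 24 pairs of groups, and nothing says that a number marks a shared batch. The tRNA share was higher in replicate 2 in every group. The mitochondrial rRNA share was lower in replicate 2 in every mutant group and higher in WT. Whether same-numbered libraries of different lines share more than the number is not known. With 1 replicate block over all lines the counts against WT without LIF were 1 for R342C, 6 for K365T and 5 for Q418R, those with LIF 1 for R342C, 4 for K365T and 3 for Q418R, and mt-Rnr2 passed the threshold in the mean response, with the same log2 difference of 0.67. The pairing within each line cannot be used against WT, where the lines differ.

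Differences near 0 changed sign in the mean response. mt-Co1 (-0.02) was 0.055 with TPM, 0.043 on the library total and -0.086 to 0.041 over the fits that left out 1 library, and mt-Rnr1 (0.16) was -0.0043 to 0.32 over those fits, below 0 without K365T no LIF replicate 1 or K365T LIF replicate 2. TPM put the median log2 difference of all genes at 0.17 in R342C, 0.15 in K365T and 0.19 in Q418R against WT without LIF, at 0.13 in R342C and 0.11 in K365T with LIF and at 0.13 for the medium in Q418R, and differences on that scale are relative to these. With TPM the share of higher calls over all genes was 75.7% in K365T and 77.0% in Q418R without LIF, instead of 50.2% and 49.2%, 78.4% and 68.1% with LIF, instead of 57.9% and 43.9%, and 60.4% for the medium in Q418R, instead of 49.4%. Scaled to the library total it was 64.4% in K365T and 63.3% in Q418R without LIF. The 6 mRNAs in the copied stretch rest on few reads, down to 4.79 normalised counts, and the rRNAs on reads left by depletion.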
